A study of Homo sapiens with 3 samples.

Results

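The 77 genes described here encode proteins of the human mitochondrial ribosome (MRP genes). Membership was set by symbol, but the set itself was chosen with earlier results of these data known. Members are RefSeq protein-coding genes of GRCh38.p14 whose symbol is MRPL or MRPS followed by a number and at most 1 letter. They are 77 of 20033 protein-coding genes on the 24 chromosomes covered. The 49 MRPL genes are named for the large ribosomal subunit and the 28 MRPS genes for the small one, although the systematic names of MRPS18A (mL66) and MRPS30 (mL65) place these 2 in the large subunit. The cells were H1299, an established human line labelled as lung adenocarcinoma, with no treatment or genetic change given in the labels. Antibodies against the transcription factor SP1 and against H3K27ac (histone H3 acetylated at lysine 27, which marks active regulatory DNA), and IgG as negative control, gave 1 CUT&RUN library each, 3 in all. In CUT&RUN, an antibody brings a nuclease to its target in nuclei and the DNA released there is sequenced. The IgG library was not analysed here.

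The mitochondrial ribosome translates the few proteins encoded by mitochondrial DNA, all of them subunits of the respiratory chain and ATP synthase. Its ribosomal RNAs come from mitochondrial DNA, whereas all of its proteins are encoded in the nucleus, made in the cytosol and imported. SP1 is a zinc finger factor that binds the GC box, a GC-rich element found at many promoters of broadly expressed genes.

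What was measured is a list of called summits per library, each a single base with the caller's score, which is −log10 of either a p-value or a q-value. Which of these it is, and how deeply the libraries were sequenced, is not given here. The SP1 list held 5570 summits and the H3K27ac list 3201. A gene was called where a summit lay within 1000 bases of either end of its annotated span. With 1 library for each antibody, values have no replicates, and no test between groups could be made. Intervals below are 95% Wilson intervals, which cover counting error only and treat genes as independent, although neighbouring genes can share a summit.

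Promoters of the members with the highest SP1 scores, as far as RefSeq promoter sequences were at hand, are shown first, because they differ in the letters that SP1 is known to bind. Each runs 5′ to 3′ on the gene's own strand, from 250 bases before the outermost listed start to 50 after it (GRCh38.p14). Of the genes named here, only MRPS18B has its SP1 summit inside this window. For the others the letters shown are not those at the summit. Capitals mark 3 sets of letters on either strand: the GC box GGGCGG or CCGCCC, the core of sites for ETS factors, CCGGAAG or CTTCCGG, and AAGATGGCG or CGCCATCTT, the core of the YY1 site. The promoters are those of MRPS12 (chr19:38930694-38930993, plus strand), MRPS18B (chr6:30617590-30617889, plus), MRPL51 (chr12:6493213-6493512, minus), MRPL54 (chr19:3762432-3762731, plus), MRPL34 (chr19:17292323-17292622, plus) and MRPS24 (chr7:43869468-43869767, minus).
MRPS12: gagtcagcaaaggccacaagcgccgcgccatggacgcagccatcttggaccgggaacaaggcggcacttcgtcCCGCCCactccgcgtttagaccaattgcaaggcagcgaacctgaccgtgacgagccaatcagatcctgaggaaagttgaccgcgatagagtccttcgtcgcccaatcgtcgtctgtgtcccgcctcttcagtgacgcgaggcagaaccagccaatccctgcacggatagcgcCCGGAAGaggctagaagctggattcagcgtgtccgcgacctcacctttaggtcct
MRPS18B: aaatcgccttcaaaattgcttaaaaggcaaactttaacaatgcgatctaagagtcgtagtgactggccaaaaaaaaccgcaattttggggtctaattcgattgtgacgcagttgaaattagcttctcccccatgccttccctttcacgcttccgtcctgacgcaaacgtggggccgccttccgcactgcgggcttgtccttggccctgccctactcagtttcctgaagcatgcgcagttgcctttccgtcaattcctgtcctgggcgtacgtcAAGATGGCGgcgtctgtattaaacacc
MRPL51: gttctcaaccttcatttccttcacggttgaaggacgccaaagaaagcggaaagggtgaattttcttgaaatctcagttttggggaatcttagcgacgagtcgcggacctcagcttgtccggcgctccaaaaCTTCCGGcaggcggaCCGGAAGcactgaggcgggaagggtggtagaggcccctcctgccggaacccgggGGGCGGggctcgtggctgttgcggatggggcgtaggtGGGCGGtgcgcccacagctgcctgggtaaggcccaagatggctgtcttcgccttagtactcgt
MRPL54: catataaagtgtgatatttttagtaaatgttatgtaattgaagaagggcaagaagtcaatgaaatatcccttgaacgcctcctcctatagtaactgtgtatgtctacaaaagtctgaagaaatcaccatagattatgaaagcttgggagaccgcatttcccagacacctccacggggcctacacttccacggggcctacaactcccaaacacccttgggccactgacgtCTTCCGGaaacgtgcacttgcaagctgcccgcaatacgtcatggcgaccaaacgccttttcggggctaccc
MRPL34: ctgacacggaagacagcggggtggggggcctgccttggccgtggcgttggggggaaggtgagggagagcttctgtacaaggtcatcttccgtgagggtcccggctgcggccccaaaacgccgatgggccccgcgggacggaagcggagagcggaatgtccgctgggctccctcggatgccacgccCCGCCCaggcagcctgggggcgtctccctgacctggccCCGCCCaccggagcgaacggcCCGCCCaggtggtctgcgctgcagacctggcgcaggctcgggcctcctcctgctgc
MRPS24: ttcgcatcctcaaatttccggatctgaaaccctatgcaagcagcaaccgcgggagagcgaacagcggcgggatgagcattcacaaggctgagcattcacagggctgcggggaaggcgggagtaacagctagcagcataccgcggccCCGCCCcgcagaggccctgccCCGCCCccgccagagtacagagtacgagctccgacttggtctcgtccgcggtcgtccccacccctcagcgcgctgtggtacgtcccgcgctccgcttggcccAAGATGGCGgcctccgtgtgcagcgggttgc

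MRPS12 held 1 GC box, MRPL51 and MRPS24 held 2 each and MRPL34 held 3, while MRPS18B and MRPL54 held none in this window. A YY1 core lay just after the start in MRPS18B and MRPS24, at 23 and 19 bases downstream of it. ETS cores lay at 5 bases upstream of the start in MRPS12, at 21 bases in MRPL54, and at 119 and 104 bases in MRPL51. A further promoter is that of MRPL41 (chr9:137551629-137551928, plus), chosen after its values were seen because it held the most GC boxes among members with an SP1 summit.
MRPL41: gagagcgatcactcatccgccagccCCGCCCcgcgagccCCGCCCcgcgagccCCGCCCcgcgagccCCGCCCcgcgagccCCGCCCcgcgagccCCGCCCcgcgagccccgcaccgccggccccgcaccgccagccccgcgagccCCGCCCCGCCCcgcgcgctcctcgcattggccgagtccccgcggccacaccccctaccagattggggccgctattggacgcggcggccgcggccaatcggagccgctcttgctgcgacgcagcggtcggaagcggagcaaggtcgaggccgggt

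It held 8 GC boxes, and 6 of them followed each other at a spacing of 14 bases. The SP1 summit of MRPL41 lay outside this window, 429 bases upstream of the start. For comparison, the first 2 listed members by symbol without an SP1 summit were MRPL1 (chr4:77862580-77862879, plus), which held 1 GC box, and MRPL11 (chr11:66438799-66439098, minus), which held none of the 3 sets of letters.
MRPL1: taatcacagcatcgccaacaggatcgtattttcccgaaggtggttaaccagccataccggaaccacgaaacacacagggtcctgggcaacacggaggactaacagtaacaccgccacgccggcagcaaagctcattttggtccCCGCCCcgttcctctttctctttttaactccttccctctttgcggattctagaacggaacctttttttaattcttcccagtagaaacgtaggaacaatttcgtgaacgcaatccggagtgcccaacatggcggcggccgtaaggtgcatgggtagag
MRPL11: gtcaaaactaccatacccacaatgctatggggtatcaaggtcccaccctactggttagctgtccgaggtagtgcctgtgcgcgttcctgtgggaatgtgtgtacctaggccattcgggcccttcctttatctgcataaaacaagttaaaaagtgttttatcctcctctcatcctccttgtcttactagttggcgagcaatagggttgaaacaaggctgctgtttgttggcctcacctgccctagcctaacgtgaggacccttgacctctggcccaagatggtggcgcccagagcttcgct

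SP1 was called at an end of 15 of the 77 MRP genes, and H3K27ac at none. The 15 were MRPL2, MRPL15, MRPL18, MRPL32, MRPL34, MRPL38, MRPL41, MRPL51, MRPL54, MRPS5, MRPS9, MRPS12, MRPS18B, MRPS24 and MRPS28. This was 19.5% of the MRP genes (12.2 to 29.7), against 13.7% of all protein-coding genes (2751 of 20033). At the share of all genes, 10.6 of 77 would have been called, so the background lies inside the interval of the MRP genes. The H3K27ac count was 0 of 77, and a count of 0 allows up to 3.90%, against 0.849% of all protein-coding genes (170 of 20033). At that background 0.653 of the 77 would have been called, so the count of 0 does not separate the MRP genes from other genes.

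The strongest summits lay at genes of both subunits. MRPL2, whose product is the relative of the bacterial protein L2 at the peptidyl transferase centre, had the highest score, 40.8, at 43059723 on chromosome 6. This summit ranked 37 among all 5570 and lay 140 bases from the high-coordinate end of MRPL2. It was 92 bases from an end of KLC4, a kinesin light chain gene. MRPS28, a small-subunit gene, had a score of 36.1 (rank 49) at 80030145 on chromosome 8, 114 bases from its high-coordinate end. TPD52, a gene first found as overexpressed in tumours, has an end 937 bases from the same summit. Scores of the other 13 members were all below 20.

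MRPS12 encodes the relative of bacterial S12, a protein of the decoding centre. Its summit at 38930657 on chromosome 19 had a score of 19.9 and lay 287 bases upstream of the nearest listed start. The same base lay 106 bases from an end of SARS2, so the gene of a decoding protein and that of mitochondrial seryl-tRNA synthetase had 1 SP1 summit in common. MRPS18B, which encodes a relative of bacterial S18, had a score of 19.5 at 30617622 on chromosome 6, 218 bases upstream of its start. That summit lay 379 bases from an end of PPP1R10, which encodes a nuclear regulatory subunit of protein phosphatase 1.

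MRPL51 and MRPL54 encode large-subunit proteins whose systematic names (mL51, mL54) assign them as particular to mitochondria. MRPL51 had summits at 6493513 and 6494124 on chromosome 12, with scores of 16.5 and 6.13, at 251 and 862 bases upstream of its start. Both lay within 1000 bases of an end of NCAPD2, a condensin subunit gene, at 589 and 22 bases. The stronger of them was thus nearer to the ribosomal gene and the weaker one nearer to the condensin gene. MRPL54 had a summit with a score of 16.3 at 3762818 on chromosome 19, 136 bases downstream of its start, which no other coding gene shared. A second one at 3761867, with a score of 4.05, lay 815 bases upstream of MRPL54 and 175 bases from an end of APBA3, an adaptor protein gene.

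MRPL34, which encodes the relative of bacterial L34, had SP1 summits spread along its span. Its called summit, with a score of 14.8, lay at 17292725 on chromosome 19, 152 bases downstream of the outermost start and 594 bases from an end of ABHD8. RefSeq lists 4 starts for MRPL34, and a further summit with a score of 6.19, at 17305608, lay 45 bases upstream of one of the inner ones. A summit at 17303727 scored 7.29 and lay 862 bases downstream of an inner start and 302 bases from the other end of ABHD8. The region of 334 bases around the called summit, 17292587 to 17292920, ranked 161 of the 2356 SP1 regions in the deposited ranking. No other MRP gene had an SP1 region on its span or within 1000 bases of it, not even MRPL2 and MRPS28 with their higher scores. The share of all genes with such a region was not counted, so this does not mark MRPL34 as unusual.

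The remaining 8 members had scores between 3.61 and 8.82, 5 of them below the median of 6.17 over all SP1 summits. MRPS24, which encodes the relative of bacterial S3 where messenger RNA enters the small subunit, had a score of 8.82 at 43869820 on chromosome 7. MRPS5, which encodes a relative of bacterial S5 near the messenger RNA path, had a score of 7.75 at 95121861 on chromosome 2. MRPL38, a mitochondria-specific large-subunit gene, had a score of 6.39 at 75905354 on chromosome 17, the farthest of the highest summits from its gene end (470 bases). None of these 3 summits was shared with another coding gene.

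MRPS9, which encodes the relative of bacterial S9, had a score of 5.72 at 105037820 on chromosome 2, with an end of the antisense RNA gene MRPS9-AS2 also within 1000 bases. MRPL41, the promoter of which carries the row of GC boxes printed above, had a score of 5.41 at 137551450 on chromosome 9, 429 bases upstream of its start. MRPL32, which encodes the relative of bacterial L32, had a score of 5.26 at 42932026 on chromosome 7. This summit lay 350 bases from MRPL32 and 148 bases from PSMA2, a gene of the proteasome core. MRPL15 had a score of 4.53 at 54134975 on chromosome 8, and MRPL18 had the lowest score of all members, 3.61, at 159790000 on chromosome 6. The MRPL18 summit lay 398 bases from an end of TCP1, a gene of the cytosolic chaperonin.

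**Figure D1:**
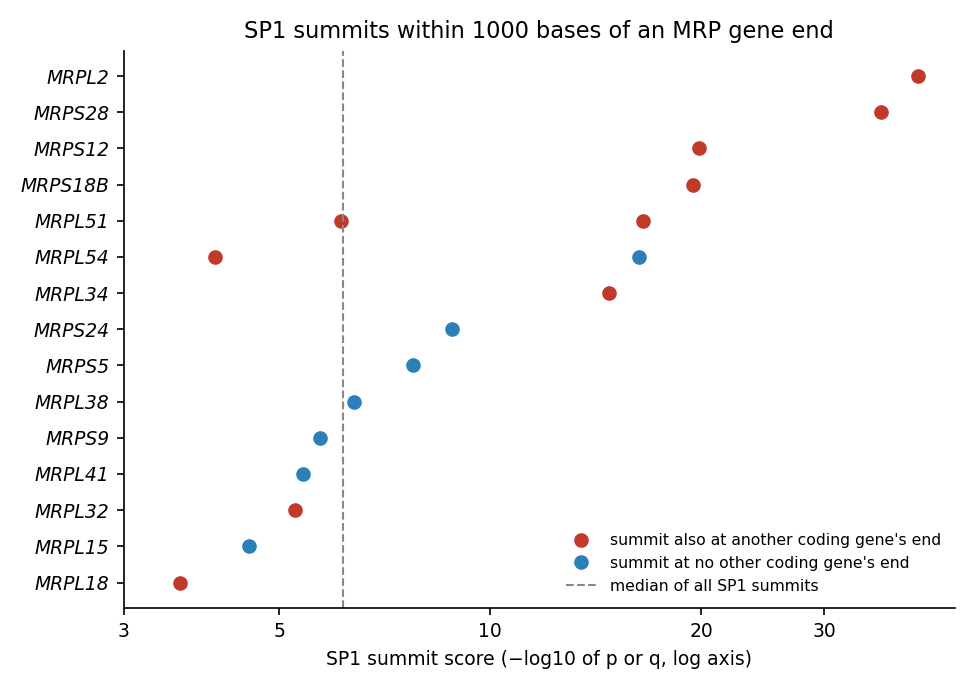
Scores of the 17 SP1 summits within 1000 bases of an end of an MRP gene, on a log axis, with 1 row per gene ordered by its highest score (highest at the top). MRPL2 and MRPS28 stand apart at 40.8 and 36.1, and 6 of the 7 genes with a highest score above 10 share that summit with another coding gene within 1000 bases (3 within 500 bases), MRPL54 being the exception.

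Where a gene had several summits, its highest score was used. This score had a median of 8.82 over the 15 MRP genes (quartiles 5.56 and 18.0), against 8.56 over all 2751 called genes (6.21 and 12.6). A score above 10 was reached by 7 of the 15, or 46.7%, against 38.1% of all called genes. The MRP scores were thus centred where those of other genes were, over a wide range.

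Several of the stronger summits were shared with a neighbouring gene. Of the 15 called members, 9 had a summit that also lay within 1000 bases of another coding gene's end, or 60.0%, against 39.4% of all called genes (1083 of 2751). These shares are not matched for neighbours. A neighbouring coding gene end lay within 1000 bases for 10 of the 15, against 1364 of the 2751. No interval was computed for the 60.0%, so it does not set the MRP genes apart. The median of the highest score was 16.5 over the 9 members with a shared summit and 6.06 over the other 6, where MRPL54 counts among the 9 although its highest summit is not the shared one. Over all called genes the same medians were 9.31 and 8.06. The count of sharing depends on the window. With 500 bases for member and neighbour alike, 5 members shared a summit, and of the 7 with a score above 10 the highest summit was shared by 3 (MRPL2, MRPS12 and MRPS18B), against 6 with 1000 bases. Because a shared summit is 1 measurement, the 15 members had 17 distinct summits, of which 10 were shared, and the data do not say to which gene of a pair such a summit belongs.

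MRP genes lie close to other genes more often than most genes do. A neighbouring coding gene had an end within 1000 bases of an own end for 42 of the 77, or 54.5%, against 28.5% of all protein-coding genes. Among genes with such a neighbour, SP1 was called at 10 of 42 MRP genes, or 23.8% (13.5 to 38.5), against 23.9% of all genes of this kind (1364 of 5709). Among genes without one, it was called at 5 of 35 MRP genes, or 14.3% (6.26 to 29.4), against 9.68% (1387 of 14324). With the background share of each class, 13.4 of the 77 would have been called, against the 15 found. The neighbours counted here include the read-through genes URGCP-MRPS24 and TPD52-MRPS28, which are annotated over the same DNA as MRPS24 and MRPS28.

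**Figure D2:**
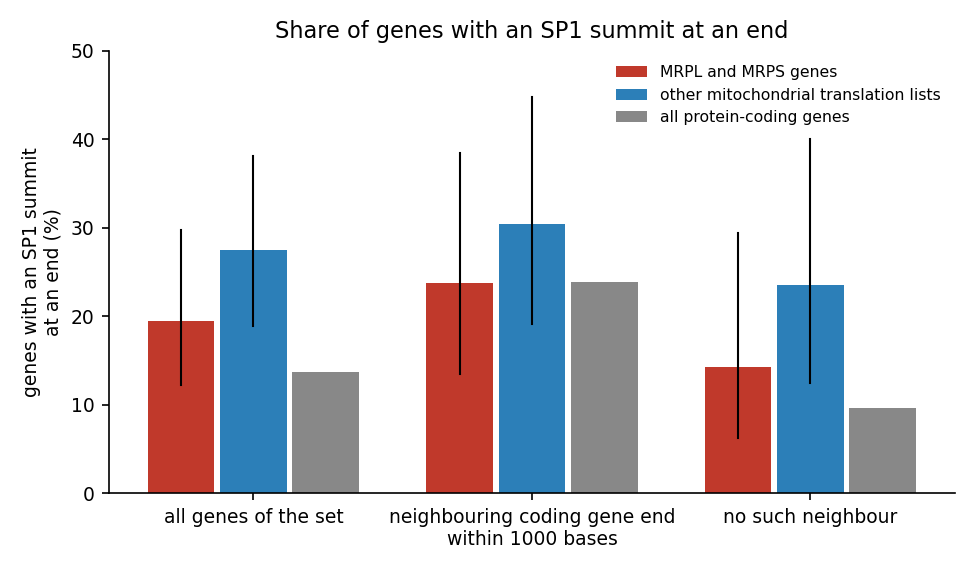
Percentage of genes with an SP1 summit at an end for MRP genes, for 5 other lists of mitochondrial translation and expression genes together, and for all protein-coding genes, over each whole set and split by whether another coding gene's end lies within 1000 bases. Black lines are 95% Wilson intervals, and the bars of MRP genes and of all genes with such a neighbour stand at 23.8% and 23.9%.

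The strand of a gene is known where its start is listed, which was so for 69 of the 77 members. No start was listed for MRPL2, MRPL10, MRPL13, MRPL15, MRPL21, MRPL23, MRPL35 and MRPS28. Of the 69, 12 had an SP1 summit within 1000 bases of a listed start, or 17.4% (10.2 to 28.0), against 14.9% of all genes with a listed start (2361 of 15841). They were the same 12 genes that were called from a gene end. In all 12 the highest summit lay at the start of the gene and not at its other end, against 94.3% of all such genes (2162 of 2292).

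The MRP genes were also split by whether a coding gene on the opposite strand starts nearby. A start of another coding gene on the opposite strand lay within 1000 bases for 23 of the 69 members, or 33.3%, against 13.6% of all genes with a listed start. SP1 was called at a start of 7 of these 23 members, or 30.4% (15.6 to 50.9), against 29.7% of all such genes (637 of 2147). It was called at 5 of the 46 other members, or 10.9% (4.73 to 23.0), against 12.6% of all other genes (1724 of 13694). In both classes the MRP genes stood at the share of genes in general. Of the 23 members, 20 lay head to head with that gene, and the genes of the other 3 (MRPL9, MRPL34 and MRPS34) overlapped it. The 6 head-to-head pairs with SP1 were MRPL18 with TCP1, MRPL32 with PSMA2, MRPL51 with NCAPD2, MRPL54 with APBA3, MRPS12 with SARS2 and MRPS18B with PPP1R10. MRPL34 is counted through an inner start, 560 bases from the start of ABHD8, whereas its highest summit lay 10700 bases from the ABHD8 start, near the 3′ end of ABHD8. Its weaker summit at 17303727, with a score of 7.29, lay 862 bases from that inner start and 302 bases from the start of ABHD8. MRPL46 and MRPS11, 2 members that face each other, had no SP1 summit at an end of either.

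Most summits lay beside the start and not on it. Counted from the nearest listed start, the highest summit of 8 members lay 101 to 500 bases upstream, that of MRPL18, MRPL34 and MRPL54 lay 133, 152 and 136 bases downstream, and that of MRPS5 lay 53 bases upstream. Over all genes with a summit at a start, 49.5% lay 101 to 500 bases upstream, 23.6% lay 101 to 500 bases downstream and 12.2% within 100 bases. The fullest stretch of 50 bases upstream was from 300 to 250 bases before the start, with 223 genes. Downstream it was from 100 to 150 bases after the start, with 281 genes, while the last 50 bases before the start held 21. The median distance from the start was 250 bases for the 12 members and 250 bases for all 2361 genes. Of these highest summits, those of MRPS18B and MRPS9 lay inside the promoter window of their own gene as counted from its outermost start (250 bases before to 50 after it).

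**Figure D3:**
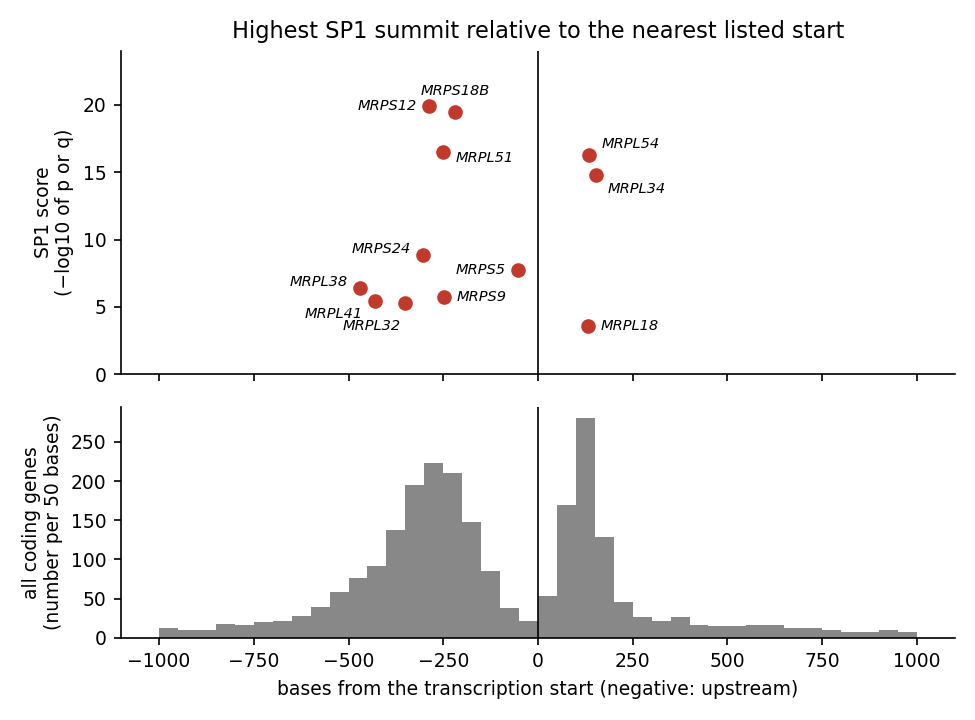
Position of the highest SP1 summit of each gene relative to its nearest listed start, in bases with negative values upstream, for the 12 MRP genes against their score (top) and as a histogram over all 2361 protein-coding genes with such a summit, in steps of 50 bases (bottom). Of the MRP summits, 9 lie upstream and 3 downstream of the start, and all but that of MRPS5, 53 bases upstream, fall under the humps of the histogram.

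The letters of the GC box were found in a similar share of MRP promoters and of all promoters. GGGCGG or its complement was found in 41 of 69 listed promoters, or 59.4% (47.6 to 70.2), against 58.3% of the promoters of 15841 protein-coding genes. The longer form GGGGCGGGG, which contains the first, was found in 23.2% (14.8 to 34.4), against 22.1%. The median GC content was 60.3% in the MRP promoters and 62.7% in all. Promoters of divergent pairs overlap in part, so their letters are not all independent.

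MRP genes with and without SP1 had overlapping intervals for the GC box and intervals apart from each other for its longer form. A GC box was found in 10 of the 12 listed members with an SP1 summit, or 83.3% (55.2 to 95.3), and in 31 of 57 without, or 54.4% (41.6 to 66.6). The shares over all genes were 78.4% with a summit and 54.9% without. The longer form was found in 7 of the 12, or 58.3% (32.0 to 80.7), and in 9 of 57, or 15.8% (8.54 to 27.4), and over all genes in 36.8% and 19.6%. For this form, both intervals of the MRP genes include the matching share over all genes. The number of GC boxes in the promoter window did not follow the score gene by gene. Only the summits of MRPS18B and MRPS9 lay inside that window, so for the other members these are not counts at the summit itself. MRPS18B and MRPL54, with scores of 19.5 and 16.3, had none, MRPL41 had 8 and a score of 5.41, and MRPS6, with the highest number in any member, had 9 and no SP1 summit.

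Letters of 2 other elements were found in a larger share of MRP promoters than of all promoters, with intervals that lie above the share over all promoters. The ETS core was found in 29 of 69, or 42.0% (31.1 to 53.8), against 14.1% of all promoters. The YY1 core was found in 13 of 69, or 18.8% (11.4 to 29.6), against 2.69%. In the same number of MRP promoters, 13, a G followed the core, against 1.88% of all promoters. ETS factors and YY1 are broadly expressed transcription factors with known sites at many genes of mitochondrial and ribosomal proteins. One of the 2 cores or both were present in 38 of the 69 MRP promoters, or 55.1%, against 16.2% of all promoters, and both in MRPL38, MRPL52, MRPS10 and MRPS18A.

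Both cores lay close to the start, in MRP promoters and in all promoters. Of the 14 YY1 cores in MRP promoters, 11 began no more than 50 bases before the start or after it, or 78.6%, against 74.7% in all promoters (325 of 435). The median over the 14 was 8 bases after the start, against 11 bases after it in all promoters. ETS cores in MRP promoters began at a median of 22 bases before the start, against 46 bases before it in all promoters. GC boxes lay farther out, at a median of 107 bases before the start in MRP promoters and 78 bases in all.

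For neither core did the MRP genes with and without SP1 have intervals apart from each other. The ETS core was found in 4 of 12 members with an SP1 summit, or 33.3% (13.8 to 60.9), and in 25 of 57 without, or 43.9% (31.8 to 56.7). For the YY1 core the counts were 4 of 12 and 9 of 57, with intervals that overlap (13.8 to 60.9 and 8.54 to 27.4). Of the other letters searched, the CCAAT box was found in 29.0% of MRP promoters and 36.4% of all. TATAAA was found in 2.90% (0.799 to 9.97) and 9.75%, and the NRF1 core, GCGCATGCG or CGCATGCGC, in 4.35% and 2.76%, or, with a C after the core, in 1.45% and 1.77%. A match of letters is a description of the sequence and shows no binding.

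**Figure D4:**
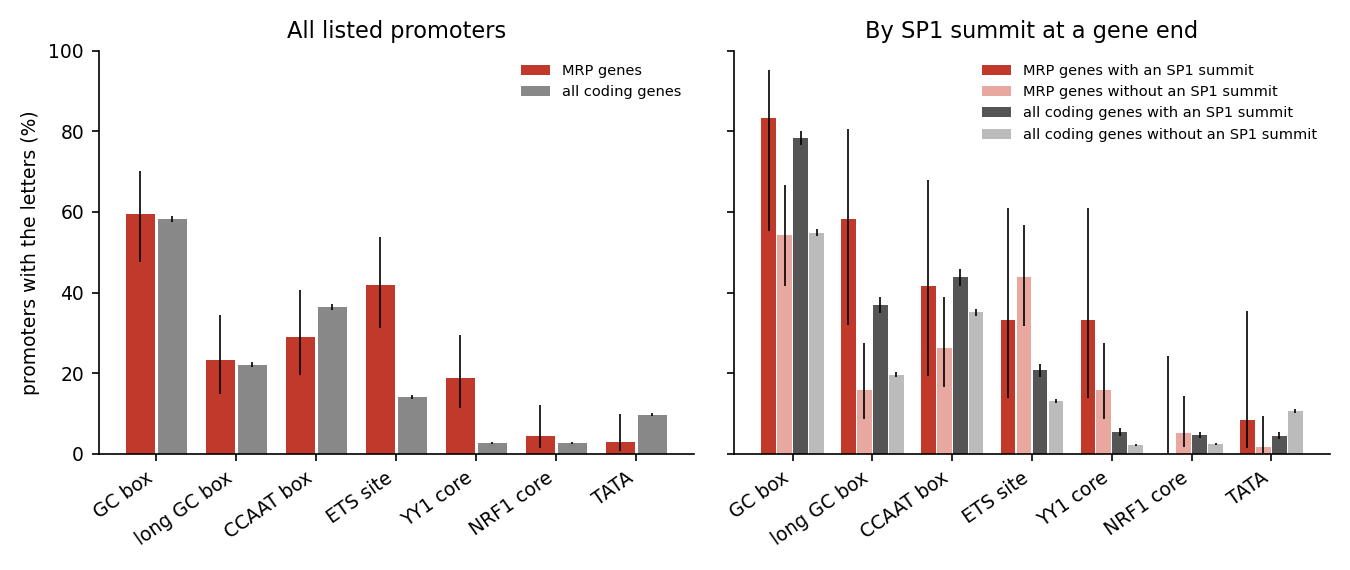
Percentage of promoters (250 bases before to 50 after the outermost listed start) that hold each set of letters on either strand, for 69 MRP genes and 15841 protein-coding genes (left), and for the same sets split by an SP1 summit at a gene end (right). Black lines are 95% Wilson intervals, and the ETS and YY1 cores stand higher in MRP genes while the GC box stands at 59.4% and 58.3%.

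By subunit and by first letter of the systematic name, the shares of MRP genes with SP1 had widely overlapping intervals. The share was 9 of 49 for MRPL genes, or 18.4% (9.98 to 31.4), and 6 of 28 for MRPS genes, or 21.4% (10.2 to 39.5). Systematic names begin with u or b for families shared with bacteria and with m for proteins assigned as particular to mitochondria, although the names in m include MRPS18A and MRPS18B (mL66, mS40), which are relatives of bacterial S18. SP1 was called at 8 of 44 genes with a name in u or b, or 18.2% (9.51 to 32.0), and at 5 of 31 with a name in m, or 16.1% (7.09 to 32.6). The table gave no systematic name for MRPS24 and MRPS28, both of which were called. By chromosome, 3 of the 4 members on chromosome 19 were called (MRPL34, MRPL54 and MRPS12, not MRPL4). The interval of this share, 30.1 to 95.4, includes the 30.2% of all protein-coding genes on that chromosome (438 of 1451). On the other chromosomes 12 of 73 were called, or 16.4% (9.66 to 26.6), against 12.4% of all genes there (2313 of 18582).

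The 62 members without an SP1 summit at an end include MRPL12, a stalk protein gene, MRPL3 and MRPL4, whose products have bacterial relatives in the core of the large subunit, and MRPS7 and MRPS11 of the small subunit. Few genes of any kind had their nearest SP1 summit between 500 and 2500 bases from an end. The share of all protein-coding genes with a summit was 11.4% within 500 bases and 15.8% within 2500. Over the same windows the count of MRP genes went from 15 to 16. The highest summits of the 15 called members lay 114 to 470 bases from the gene end. The next member was MRPS16, whose nearest summit, with a score of 13.4 at 73247122 on chromosome 10, lay 1727 bases beyond its 3′ end and 133 bases from an end of DNAJC9, a cochaperone gene. After it came MRPL12 at 4585 bases and MRPL19 at 5819 bases. The median distance from a gene end to the nearest SP1 summit was 41900 bases over the MRP genes, against 88700 bases over all protein-coding genes.

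SP1 was called at few pseudogenes of any kind, and those named after MRP genes were no exception. Of 106 pseudogenes with an MRPL or MRPS symbol, 1 (MRPL9P1, on chromosome 8) had an SP1 summit within 1000 bases of an end, against 0.677% of the 16845 pseudogenes in the table. None of the 106 had an H3K27ac summit there, and a count of 0 allows up to 2.83%, against 0.404% of all pseudogenes. Most pseudogenes of MRP genes are thought to arise by reverse transcription and so to lack the promoter of their parent gene. How these 106 arose is not given, and a link to the counts was not tested.

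No H3K27ac summit lay close to an MRP gene end. Only 0.849% of all protein-coding genes had one within 1000 bases, so this does not show that acetylation is absent there. The nearest summit was 13127 bases from an end of MRPL13, followed by 19861 bases for MRPL33 and 33671 bases for MRPL52. Within 100 kb of an end, 15 of the 77 members had an H3K27ac summit, or 19.5%, against 23.3% of all protein-coding genes. The median distance was 300000 bases for the MRP genes and 321000 bases for all protein-coding genes. The 1 H3K27ac summit inside an MRP gene lay in MRPS28, at 79989651 on chromosome 8, with a score of 4.90 and 40608 bases from the nearer end. Its region of 219 bases ranked 1341 of 2710. The lower quartile of the distance was 170000 bases for the MRP genes and 110000 bases for all genes. Among the 17 SP1 summits at MRP gene ends, that of MRPS28 lay nearest to an H3K27ac summit, at 40494 bases. How often SP1 summits in general lie that far from H3K27ac was not counted, so this distance does not set the MRP summits apart.

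**Figure D5:**
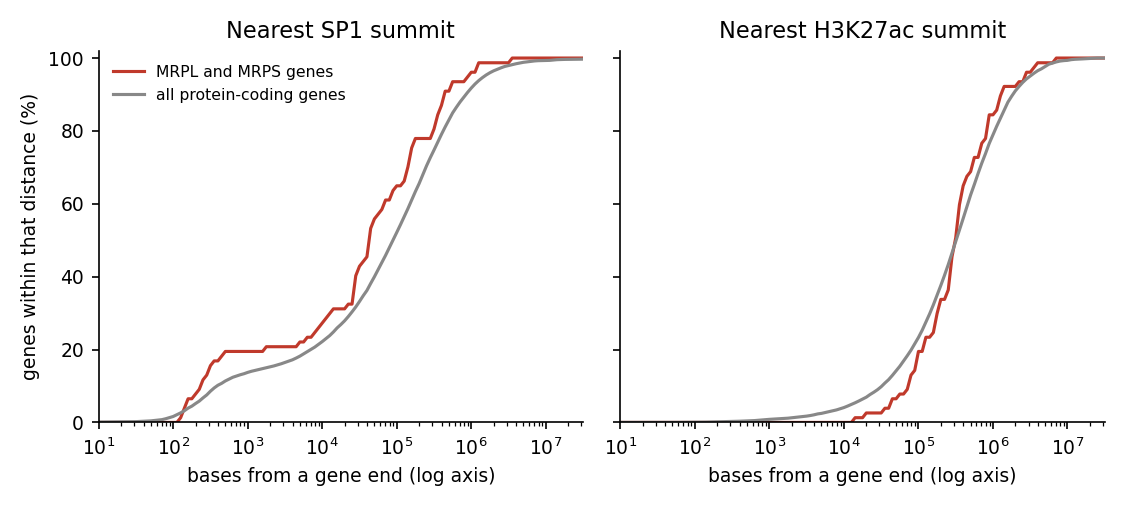
Cumulative percentage of genes whose nearest SP1 summit (left) or H3K27ac summit (right) lies within a given distance of a gene end, on a log axis, for 77 MRP genes and 20033 protein-coding genes. The MRP curve for SP1 stays flat between 470 and 1727 bases, where no member has its nearest summit, and the H3K27ac curve of the MRP genes leaves 0 only at 13127 bases. The SP1 curve of all genes also rises little there, from 11.4% at 500 bases to 15.8% at 2500.

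SP1 was also called at genes that work with the mitochondrial ribosome. Over 5 lists of such genes, it was found at 22 of 80, or 27.5% (18.9 to 38.1), against 13.7% of all protein-coding genes, and H3K27ac at none. By neighbour, the share was 14 of 46 with a neighbouring gene end within 1000 bases, or 30.4% (19.1 to 44.8), and 8 of 34 without, or 23.5% (12.4 to 40.0). The second interval lies above the background of 9.68%, and the first includes its background of 23.9%. With the background share of each class, 14.3 of the 80 would have been called, against the 22 found. The lists were chosen with earlier results of these data known, so an interval above the background is not independent evidence. The interval of the MRP genes, 12.2 to 29.7, includes the 27.5% of the 5 lists.

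Among mitoribosome proteins under other symbols, 3 of 5 were called: DAP3, a GTP-binding small-subunit protein gene, with a score of 15.4, PTCD3 with 7.75 and GADD45GIP1 with 4.21. The DAP3 summit lay 964 bases from an end of DAP3 and was shared with YY1AP1, and that of PTCD3 was shared with POLR1A. Mitochondrial translation factors had 4 of 16, all with scores below 8. They were the elongation factor gene TSFM at 4.69, the initiation factor gene MTIF3 at 4.46, the release factor family gene MTRFR at 7.16 and TACO1, an activator of COX1 translation, at 4.66. The TSFM summit lay 844 bases from an end of TSFM and was shared with EEF1AKMT3. Genes of mitoribosome assembly and ribosomal RNA maturation had 7 of 24. RBFA, a ribosome-binding factor gene, led them at 19.1, with the GTPase gene MTG1 at 10.4 and the RNA methyltransferase gene TFB1M at 8.67. FASTKD2 had 6.34, MTERF3 5.53, MRM3 5.07 and ERAL1 3.86. The summits of RBFA, FASTKD2, MTERF3 and ERAL1 were shared with another coding gene (TXNL4A, MDH1B, PTDSS1 and FAM222B).

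Mitochondrial aminoacyl-tRNA synthetases had 6 of 22. SARS2 had the 19.9 of the summit it shares with MRPS12, followed by CARS2 at 15.6, from a summit shared with ING1. Among the others, VARS2 had 6.29, from a summit shared with GTF2H4, and LARS2 had 6.21. HARS2 had 5.28, from a summit shared with HARS1, the gene of the cytosolic enzyme. Of genes for mitochondrial transcription and RNA processing, 2 of 13 were called, the RNA polymerase gene POLRMT at 9.93 and the transcription factor gene TFAM at 5.71. The median highest score over the 22 genes was 6.25, against 8.82 over the 15 MRP genes and 8.56 over all called genes.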

How the data were processed

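SP1 and H3K27ac were profiled by CUT&RUN in H1299 cells, 1 library each. The score of each deposited summit is −log10 of either a p-value or a q-value, as the form of the item names (that of MACS) and a lowest score just above 3 in both lists show. Deposited regions carry a rank and an item name of the form ROSE writes. Per the submitters' processing notes, the build was hg38. The notes name cutadapt 2.5 and deepTools 3.4.1 without their roles. How reads were aligned, the calling settings and any control used are not given in the sources. Depth is unknown, and another depth would change how many summits were called.

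Gene spans came from the RefSeq table of GRCh38.p14, and starts and promoters from the RefSeq promoter table. All 1006 pairs of overlapping promoters on opposite strands were reverse complements of each other. Motif letters were counted in 1 promoter per gene, at the outermost start. The 80 symbols of the 5 lists all matched. Counts were made with Python 3.11.15, pandas 2.3.3 and scipy 1.17.1 and checked on simulated summits. No test was run, for want of replicates. The members, lists and motifs were chosen with earlier results of these data known, and the YY1 and NRF1 letters were shortened from 10 to 9 after values had been seen. All MRP genes with a summit at an end, and those with one at 1000 to 2500 bases, are named, as are the called genes of the other lists, except 1 that is not reported here. Alternatives covered windows of 500 and 2500 bases, stricter scores, the choice of neighbours and summits, and a longer GC box.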

Additional observations from a re-analysis of the deposited data

How the results depend on the processing

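No paired analysis was possible because each antibody had a single library. Of 20 alternative values for 10 results, 15 stayed within the 95% interval of the value in the text (within 1.5 times for counts of shared summits and for medians) and 5 did not. With SP1 summits of the upper quartile by score, 7 MRP genes were called, or 9.09%, against 6.21% of all protein-coding genes. With 500 bases for member and neighbour alike, 5 members shared a summit with another coding gene. The longer GC box was found in 16 MRP promoters. With H3K27ac summits above the median score, the median distance to MRP genes was 610238 bases. The NRF1 core of 10 letters was found in 1 MRP promoter, against 3 with 9, and the YY1 core in 13 at both lengths. These shifts follow from fewer summits, a narrower window or a longer motif. The count of called MRP genes was 15 with a window of 500 bases, against 11.4% of all genes, and 16 with 2500 bases, against 15.8%. It was 12 where a summit counted only for its nearest gene (15.6%, against 11.3%) and 10 with summits above the median score (13.0%, against 10.3%). Over the 5 other lists together, SP1 was called at 19 of 80 genes with 500 bases (23.8%, against 11.4%) and at 22 with 2500 bases (27.5%, against 15.8%). The H3K27ac count of MRP genes was 0 under each of its 3 alternatives. The main limits are the single library per antibody, the unknown depth and the IgG library, which was not analysed here.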
